A study of Mus musculus with 22 samples.

Results

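The slow muscle fibre genes are 9 genes of the contractile apparatus and calcium handling of slow twitch fibres: Tnnt1, Tnnc1, Tnni1, Myh7, Myl2, Myl3, Atp2a2, Pln and Tpm3. They were found by gene symbol in the platform annotation, which gave 13 probes of the 25697 on the array, 9 genes of 16593 with a symbol. Expression had been measured on 22 bead arrays of total RNA from C57BL/6J mice, either mutant in Sgms1 or wild type, and the series' design speaks of male mice. Sgms1 encodes sphingomyelin synthase 1, a Golgi enzyme that makes sphingomyelin. Muscle came from 4 Sgms1 mutant and 3 wild-type mice aged 17 weeks, and brain from the same 7 mice. Testis came from 4 mutant and 4 wild-type mice aged 27 weeks. The labels name neither the kind of mutation nor the muscle that was dissected. By the mouse identifiers, no mouse gave more than 1 array of a tissue.

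Skeletal muscle fibres are slow or fast according to the isoforms of the sarcomere proteins they make. In the thin filament, troponin C binds calcium, troponin I inhibits the interaction of actin and myosin, and troponin T anchors both to tropomyosin. Slow fibres use their own isoform of each, together with the beta myosin heavy chain, and they return calcium to the sarcoplasmic reticulum with the pump SERCA2, which phospholamban restrains. Mouse limb muscles differ widely in their share of slow fibres, from soleus, which is rich in them, to muscles that hold almost none. Several of these genes, among them Myl2, Myl3, Tnnc1, Myh7, Atp2a2 and Pln, also serve heart muscle.

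Levels below are log2 intensities after background correction and quantile normalization within a tissue, and a probe was called detected on an array at a detection p under 0.05. Arrays had median intensities of 133 to 143 in muscle, 112 to 143 in brain and 93.7 to 107 in testis. Fast and general muscle genes checked the label of the muscle libraries: Acta1, the skeletal alpha-actin gene, lay between 14.56 and 14.75, and Ckm, the muscle creatine kinase gene, between 14.19 and 14.47. The mutated gene checked the genotype labels. Sgms1 had levels of 7.21, 7.50, 7.30 and 7.13 in muscle of mutants 1 to 4, against 7.77, 8.09 and 8.12 in muscle of wild types 1 to 3, with no overlap (exact permutation p = 0.0286, the smallest that 4 against 3 arrays allow). That difference of -0.70 (SE 0.13) missed the threshold over all probes (limma adjusted p = 0.0871). The brain libraries labelled mutant 2 (8.14) and wild type 3 (6.64) went against their labels at Sgms1, so each brain comparison carries that doubt.

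In muscle, the slow fibre genes varied widely between individual mice of 1 genotype. Mutants 1 and 2 had high levels of Tnnt1, Tnnc1, Myl2, Myl3 and Atp2a2, mutant 3 had low levels, and mutant 4 and the 3 wild types lay between or low. No probe of the 9 genes passed the genotype test. Of the 13 probes, 10 probes of 7 genes were detected on at least 3 of the 7 muscle arrays and were tested, and those of Myh7 and Tnni1 and 1 of the 4 probes of Tpm3 were not. In limma, 0 of the 10 were called at an adjusted p under 0.05, beside 0.105% of the 11391 probes tested in muscle. At an unadjusted p under 0.05, 3 of the 10 were higher in mutants (Tnnt1 and 2 probes of Tpm3) and 0 lower, beside 4.28% of all probes higher and 9.18% in either direction. Means were higher in mutants for 8 of the 10 and lower for 2, beside 53.1% of all probes higher, and the median difference was 0.65, beside 0.0102 over all probes. Tpm3 probes ILMN_2426966 and ILMN_2426967 were each detected in 3 of 4 mutants and 0 of 3 wild types. They entered the test only through the mutants, where they were high, so they add no support to these counts. Several of these probes report the same gene or move together across arrays, so they are not independent. In tissue pieces, fewer slow fibres and less RNA per fibre cannot be told apart.

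**Figure D1:**
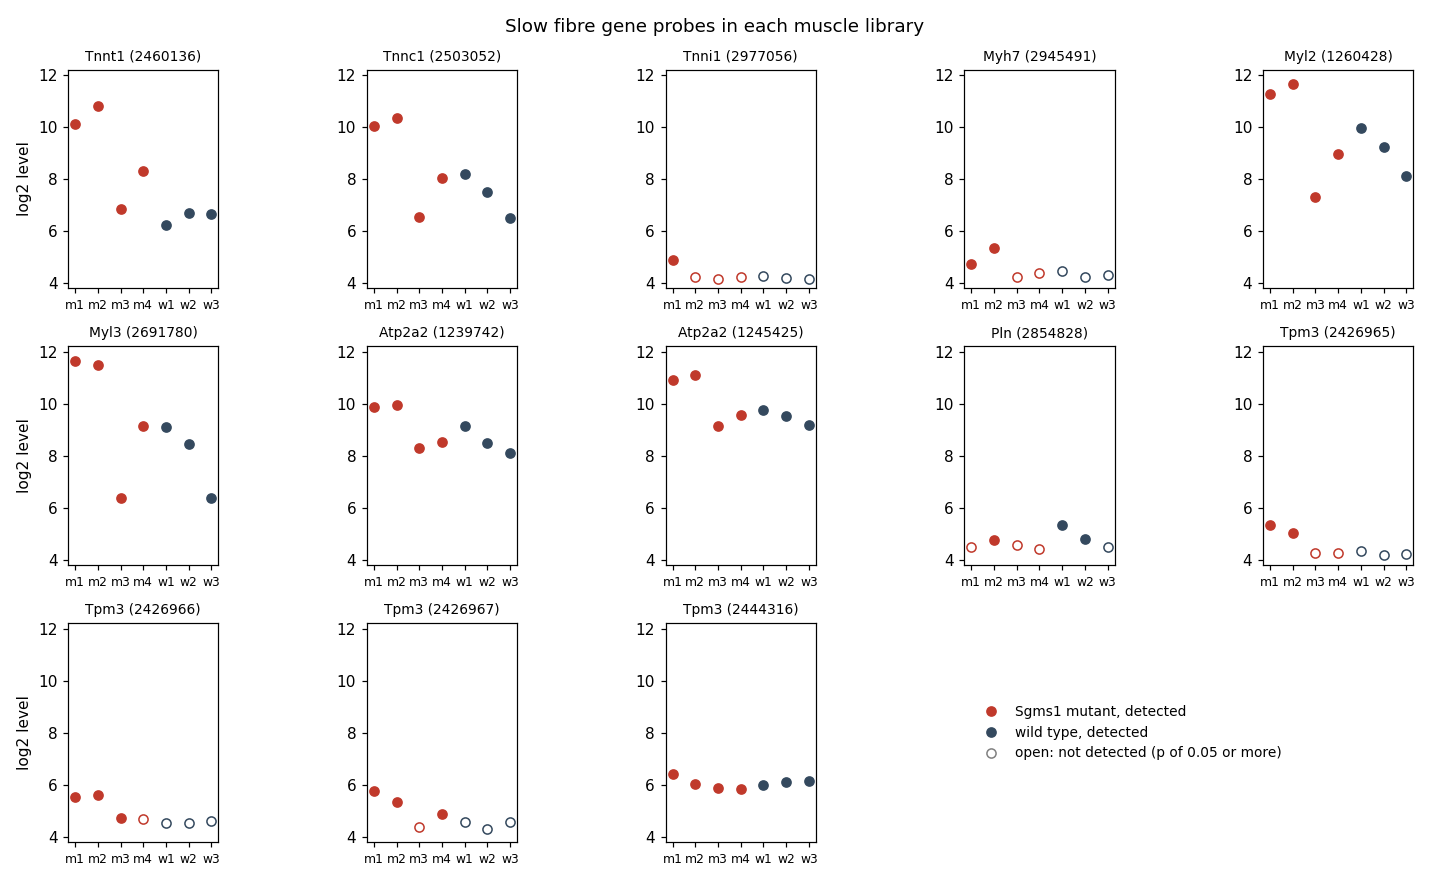
Log2 level (vertical axis) of each of the 13 slow fibre gene probes in the 7 muscle libraries, mutants m1 to m4 on the left of each panel and wild types w1 to w3 on the right, with open circles where the probe was not detected. Tnnt1 lay between 6.86 and 10.81 in mutants and between 6.22 and 6.67 in wild types, while Myl3 spanned 6.36 to 11.63 in mutants and 6.38 to 9.12 in wild types.

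Among the troponins, Tnnt1 differed most. Tnnt1 (ILMN_2460136), which encodes slow skeletal troponin T, had levels of 10.12, 10.81, 6.86 and 8.30 in mutants 1 to 4, against 6.22, 6.67 and 6.64 in wild types 1 to 3. All 4 mutant libraries lay above all 3 wild-type libraries, but mutant 3 exceeded the highest wild type only slightly while mutant 2 was far above it. The mean was 9.02 ± 1.79 (SD, n = 4) in mutants and 6.51 ± 0.25 (SD, n = 3) in wild types, a difference of 2.51 (SE 0.75), or 5.70-fold. It did not pass the test (limma adjusted p = 0.306, exact permutation p = 0.0571). It was 1 of 2 probes of the group whose genotypes did not overlap, as was the case, with mutants higher, for 4.40% of all muscle probes. Leaving out single libraries moved the difference between 1.92 (without mutant 2) and 3.23 (without mutant 3), with the lowest limma adjusted p at 0.0585 without mutant 3.

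Tnnc1 (ILMN_2503052) encodes the troponin C shared by slow skeletal and heart muscle. It had levels of 10.02, 10.34, 6.54 and 8.05 in mutants 1 to 4, against 8.20, 7.48 and 6.48 in wild types 1 to 3. The genotypes overlapped, since mutants 1 and 2 were above every wild type, mutant 4 lay among them and mutant 3 was close to wild type 3, the lowest library. The difference of 1.35 (SE 0.79, limma adjusted p = 0.679) was smaller than the SD of 1.78 among the mutants, and it was 0.82 without mutant 2 and 2.09 without mutant 3. Tnni1 (ILMN_2977056), encoding slow skeletal troponin I, was detected in mutant 1 alone, with a level of 4.90. The undetected values were 4.23, 4.17 and 4.24 in mutants 2 to 4, against 4.25, 4.18 and 4.15 in wild types 1 to 3. Mutant 2, which had the highest Tnnt1 level, was not detected with the Tnni1 probe. Since that probe was at background in every library but mutant 1, whether Tnni1 followed Tnnt1 and Tnnc1 cannot be judged.

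Of the myosin light chains, Myl3 had the widest range of the group over the 7 libraries (5.27), and that of Myl2 (4.31) was narrower than that of Tnnt1 (4.59). Myl3 (ILMN_2691780) encodes the essential light chain of slow and ventricular myosin, and its levels were 11.63, 11.49, 6.36 and 9.15 in mutants 1 to 4, against 9.12, 8.47 and 6.38 in wild types 1 to 3. Mutant 1 was 38.7-fold above mutant 3, the highest and the lowest of the 7 libraries, and mutant 3 and wild type 3 were nearly equal. The genotype difference was 1.67 (SE 1.13, limma adjusted p = 0.733). Without wild type 3 it was 0.86, and without mutant 3 it was 2.77, so single libraries moved it more than 1.5 times. Myl2 (ILMN_1260428), encoding the regulatory light chain of the same myosins, had levels of 11.26, 11.63, 7.32 and 8.95 in mutants 1 to 4, against 9.94, 9.23 and 8.11 in wild types 1 to 3. Here mutant 3 lay below all wild types and mutants 1 and 2 above them, so the wild-type range lay within the mutant range. The difference of 0.70 (SE 0.89, limma adjusted p = 0.892) shrank to 0.08 without mutant 2 and grew to 1.52 without mutant 3.

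Myh7 (ILMN_2945491), the gene of the beta myosin heavy chain that gives slow fibres their contraction speed, was near background in muscle. It had levels of 4.73 and 5.33 in mutants 1 and 2, where it was detected. It was not detected at 4.21 and 4.40 in mutants 3 and 4, nor at 4.44, 4.24 and 4.32 in wild types 1 to 3. The 2 libraries with detected Myh7 were those with the highest levels of Tnnt1, Tnnc1, Myl2, Myl3 and Atp2a2. No difference was tested for Myh7, which was detected on fewer than 3 muscle arrays.

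Atp2a2, the gene of the slow fibre and heart calcium pump SERCA2, was measured by a pair of probes. ILMN_1245425 had levels of 10.91, 11.10, 9.13 and 9.57 in mutants 1 to 4, against 9.77, 9.54 and 9.18 in wild types 1 to 3. ILMN_1239742 had levels of 9.87, 9.95, 8.29 and 8.53 in mutants 1 to 4, against 9.16, 8.50 and 8.12 in wild types 1 to 3. On both probes mutants 1 and 2 were above all wild types and the other mutants lay within or just below the wild-type range. The differences were 0.68 (SE 0.42, limma adjusted p = 0.697) and 0.57 (SE 0.41, limma adjusted p = 0.755). Without mutant 2 they were 0.37 and 0.30, and without mutant 3 they were 1.03 and 0.86. The range over the 7 libraries was 1.97 and 1.83 on the log2 scale, narrower than the 3.86 to 5.27 of Tnnc1, Myl2, Tnnt1 and Myl3.

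Pln (ILMN_2854828), encoding phospholamban, the inhibitor of SERCA2, was near background in muscle. It had levels of 4.48, 4.76, 4.57 and 4.41 in mutants 1 to 4, against 5.34, 4.78 and 4.50 in wild types 1 to 3. It was detected in 1 of 4 mutants and 2 of 3 wild types, and its highest library was wild type 1. Whether Pln moved with the other genes cannot be judged from such values. The difference was -0.32 (SE 0.18, limma adjusted p = 0.668), with -0.08 without wild type 1 and -0.51 without wild type 3.

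The 4 probes of Tpm3, the gene of slow skeletal alpha-tropomyosin and of shorter forms made in many cells, disagreed with each other. ILMN_2426966 had levels of 5.52, 5.61, 4.72 and 4.69 in mutants 1 to 4, the last undetected, against undetected values of 4.52, 4.52 and 4.60 in wild types 1 to 3, with no overlap. ILMN_2426967 had 5.76, 5.32, 4.36 and 4.88 in mutants 1 to 4, undetected in mutant 3, against undetected values of 4.56, 4.30 and 4.55 in wild types 1 to 3. ILMN_2426965 had 5.35, 5.04, 4.25 and 4.26 in mutants 1 to 4, undetected in mutants 3 and 4, against undetected values of 4.33, 4.20 and 4.22 in wild types 1 to 3. On all 3, mutants 1 and 2 were the highest libraries, as for Tnnt1. A probe detected on no wild-type array has only a bound there, set for each array by the dimmest signal that was still detected, and mutants were at least 1.37-fold, at least 1.32-fold and at least 1.03-fold higher on the 3 probes in that order. The first 2 were tested and did not pass (limma adjusted p = 0.448 and 0.531), and the second differed by 0.38 without mutant 1, against 0.61 with all libraries. The fourth probe, ILMN_2444316, was detected everywhere and was nearly flat, with 6.40, 6.02, 5.85 and 5.82 in mutants 1 to 4, against 6.00, 6.09 and 6.14 in wild types 1 to 3, a difference of -0.06 (SE 0.15, limma adjusted p = 0.957). Which transcripts of Tpm3 each probe reads was not tested.

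**Figure D2:**
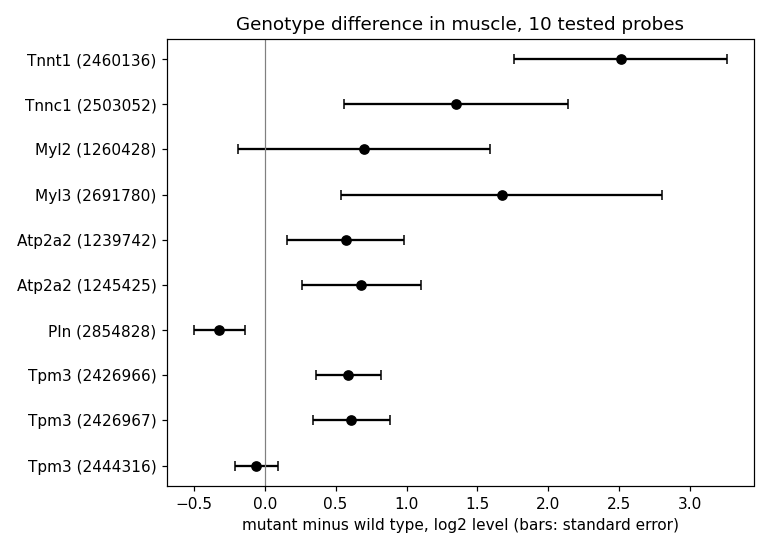
Mutant minus wild-type difference in muscle on the log2 scale (horizontal axis) with its standard error, for the 10 probes tested. Differences ran from -0.32 for Pln to 2.51 for Tnnt1, and none passed the test over all probes.

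The spread between mutant muscle libraries was wide for some of the genes and not for others. Over the 11391 probes tested, Myl3, Myl2, Tnnt1 and Tnnc1 held ranks 1, 2, 3 and 4 by SD among the 4 mutant libraries, with SDs of 2.48, 2.03, 1.79 and 1.78. The median SD over all probes was 0.16 in mutants and 0.15 in wild types. Only 0.167% of the probes, 19 in all, had an SD above 1 among mutants, and 4 of those 19 belonged to the slow fibre genes. The heart genes Myh6 and Nppa were also among the 19, at ranks 10 and 11. The Atp2a2 probes held ranks 20 and 28, the Tpm3 probes 85, 179 and 1866, and Pln 6155. Among wild types 20 probes had an SD above 1, of which 1 was a slow fibre probe, that of Myl3 with 1.43. Tnnt1 had an SD of only 0.25 in wild types, rank 2213, whereas Myl2 and Tnnc1 had ranks 28 and 34 there. These ranks describe the libraries at hand, and no test of unequal spread was made.

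**Figure D3:**
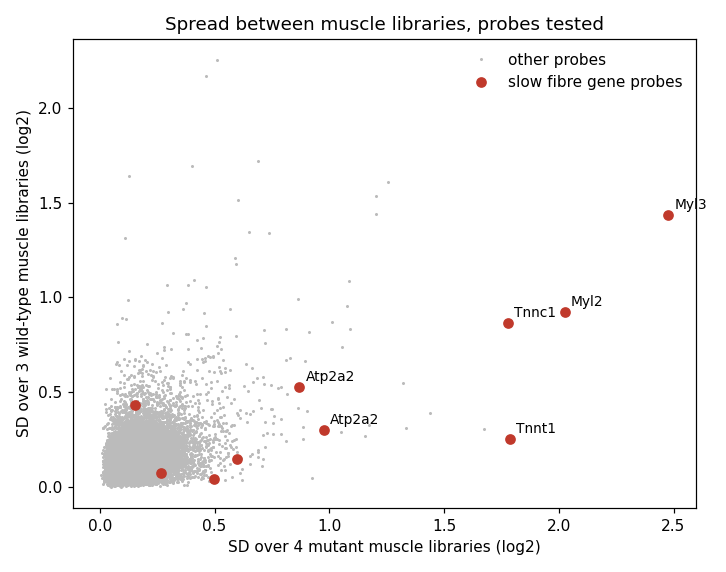
SD of log2 levels over the 4 mutant muscle libraries (horizontal axis) against the SD over the 3 wild-type libraries (vertical axis), with 1 point per probe tested and slow fibre gene probes in red. Myl3, Myl2, Tnnt1 and Tnnc1 lie farthest to the right, and Tnnt1 combines an SD of 1.79 in mutants with 0.25 in wild types.

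Promoter sequences were looked at because several members, among them Tnnt1, Tnnc1 and Myl3, moved together across muscle libraries. The Pln window is shown as well, but Pln was near background in muscle, so it is no contrast to them. The RefSeq promoter table of build GRCm38.p6 held 12 windows for 8 of the 9 genes, some of which overlap each other, and had no entry for Atp2a2. Each window below covers the 250 bases before the transcription start, 5′ to 3′ on the gene's strand. Capitals mark the MCAT motif (CATTCC on either strand), the CArG box or the TATA motif (TATAAA on either strand). The 4 windows are Tnnt1 at chr7:4515976-4516225 on the minus strand, Tnnc1 at chr14:31208062-31208311, Myl3 at chr9:110763428-110763677 and Pln at chr10:53337436-53337685, the last 3 on the plus strand.
Tnnt1: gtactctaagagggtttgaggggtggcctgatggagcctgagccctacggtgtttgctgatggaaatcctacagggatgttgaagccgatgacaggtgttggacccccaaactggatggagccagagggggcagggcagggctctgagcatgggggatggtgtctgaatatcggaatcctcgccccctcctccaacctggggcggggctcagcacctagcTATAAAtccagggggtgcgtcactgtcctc
Tnnc1: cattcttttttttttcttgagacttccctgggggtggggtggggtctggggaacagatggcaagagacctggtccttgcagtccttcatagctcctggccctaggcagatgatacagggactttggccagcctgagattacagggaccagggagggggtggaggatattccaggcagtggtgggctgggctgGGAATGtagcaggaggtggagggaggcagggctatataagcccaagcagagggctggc
Myl3: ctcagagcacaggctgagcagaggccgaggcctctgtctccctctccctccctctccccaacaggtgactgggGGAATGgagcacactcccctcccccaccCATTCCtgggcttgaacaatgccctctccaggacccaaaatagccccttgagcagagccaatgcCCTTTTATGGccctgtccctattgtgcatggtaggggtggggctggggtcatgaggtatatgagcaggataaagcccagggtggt
Pln: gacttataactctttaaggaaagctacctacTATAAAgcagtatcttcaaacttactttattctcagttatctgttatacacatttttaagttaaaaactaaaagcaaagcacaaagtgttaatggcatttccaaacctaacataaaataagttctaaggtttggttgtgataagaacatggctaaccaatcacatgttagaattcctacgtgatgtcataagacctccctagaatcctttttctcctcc
The Tnnt1 window had a TATA motif at 30 bases before the start, and the Tnnc1 window an MCAT motif at 58 bases before it. In the Myl3 window, MCAT motifs stood at 177 and 149 bases and a CArG box at 85 bases before the start, and the Pln window had a TATA motif at 219 bases. MCAT motifs, which transcription factors of the TEAD family bind, were in 3 of the 12 windows, those of Tnnc1, Myl3 and 1 of Myh7, beside 12.6% of 32851 promoter windows of the same length. The E-box CANNTG, the letters that myogenic factors such as MyoD recognise, was in all 12 windows, beside 66.2% of all windows. The TATA motif was in 3 windows, beside 12.4%. The CArG box, the site of serum response factor, was in 1, beside 1.47%, and the MEF2 motif was in 0, beside 2.92%. Myl2, which also moved closely with Myl3 (Pearson's r 0.97), had no MCAT motif and no CArG box in its windows. A match says only that these letters are present.

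Across the 7 muscle libraries the members fell into a closely parallel set and a remainder. Pearson's r between log2 levels was 0.99 for Tnnc1 with Myl3, 0.97 for Myl2 with Myl3, and 0.95 and 0.94 for the Atp2a2 probes with Myl3. Tnnt1 was somewhat apart, with r of 0.83 to Myl3, 0.88 to Tnnc1 and 0.77 to Myl2, and it was closest to Tpm3 probe ILMN_2426966 at 0.96. In wild types 1 and 2 the levels of Myl2 and Myl3 were above those in mutant 3, while that of Tnnt1 was below. Pln had r of -0.34 to Tnnt1 and 0.11 to Myl3, and Tpm3 probe ILMN_2444316 had 0.33 and 0.43. The values for Pln rest on a probe detected on 3 of 7 muscle arrays and near background. These coefficients describe 7 libraries and carry no test. Genes measured in 1 tissue piece share its makeup.

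Outside the group, 10 probes with a gene symbol were listed as most like Tnnt1. They came from the 696 tested muscle probes with a range of at least 1, a count that includes probes of the group itself. The first were Ccl8, a monocyte-attracting chemokine, with r = 0.97, Nfic, a transcription factor of the nuclear factor I family, with 0.95, and Slc15a2, a peptide transporter, with 0.87. Serpina1b (0.85), Mef2c (0.84), Thap3 (0.82), Bdh1, Taf6, Zdhhc12 and Ddx6 (0.80 each) followed. Ccl8 had levels of 5.73, 5.72, 4.86 and 5.31 in mutants 1 to 4, against 4.40, 4.72 and 4.59 in wild types 1 to 3. That range was much narrower than that of Tnnt1, but the wild-type levels lay near background, so it may be understated. Slc15a2 also came near background, at 4.29 in mutant 3 and 4.34 in wild type 1. Of the 10, only Taf6 passed the genotype test (difference 1.40, limma adjusted p = 0.00310). The 5 least alike were Mbnl2 (-0.91), Rcan1 (-0.88), Mgll (-0.86), Cav2 (-0.86) and Osgin1 (-0.85). Mbnl2 encodes a splicing regulator, Rcan1 an inhibitor of calcineurin and Mgll monoacylglycerol lipase.

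Lists of other fibre genes were chosen with earlier results of these data known. Of 12 tested genes linked to slow or oxidative fibres, 8 were higher and 4 lower in mutants, 0 were called in limma and 0 had an unadjusted p under 0.05, and the median difference was 0.07. Myoz2, a slow fibre Z-disc protein gene, had levels of 8.49, 7.83, 6.34 and 7.46 in mutants 1 to 4, against 7.63, 6.85 and 7.12 in wild types 1 to 3 (difference 0.33, SE 0.41). It was highest in mutant 1 and lowest in mutant 3. Sln, encoding sarcolipin, a small inhibitor of the calcium pump, had 7.67, 7.05, 5.40 and 6.51 in mutants 1 to 4, against 7.11, 5.95 and 6.75 in wild types 1 to 3, with the same extremes. Csrp3, the muscle LIM protein gene, had 8.78, 8.27, 7.88 and 7.39 in mutants 1 to 4, against 9.73, 7.36 and 8.17 in wild types 1 to 3, and was highest in wild type 1. Myoz2, Sln and Csrp3 thus spread more widely over the 7 libraries than Atp2a2, Pln and Tpm3. Actn2, encoding the alpha-actinin of all muscle fibres, had 12.21, 12.19, 11.50 and 11.94 in mutants 1 to 4, against 11.58, 11.77 and 11.62 in wild types 1 to 3, again with mutants 1 and 2 highest and mutant 3 lowest. Casq2, the slow fibre and heart calsequestrin gene, differed by 0.22 (SE 0.21), Ankrd2, a stretch-responsive gene, by 0.30 (SE 0.33), and Tpm2, encoding beta-tropomyosin, by 0.07 (SE 0.10).

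Of 17 tested fast fibre genes, 6 were higher and 11 lower in mutants, 0 were called in limma, 0 had an unadjusted p under 0.05, and differences ran from -0.23 to 0.13. Their summed linear level was 226387, 227045, 224863 and 229231 in mutants 1 to 4, against 228896, 230224 and 222827 in wild types 1 to 3. For the 7 slow fibre genes, at 1 probe per gene, it was 9812, 11426, 1093 and 2484 in mutants 1 to 4, against 2886, 2074 and 1223 in wild types 1 to 3. The highest and the lowest slow fibre sums of all 7 libraries were thus both in mutants, in mutants 2 and 3. The fast fibre sum could hardly move, since Mylpf, Myl1, Tnnc2, Pvalb, Eno3 and Actn3 lay at 14.19 to 14.78, at the top of the quantile-normalized scale, where values are set by rank. Tnnt3, the fast troponin T gene, had levels of 13.15, 13.37, 13.10 and 13.25 in mutants 1 to 4, against 13.55, 13.42 and 13.18 in wild types 1 to 3. Tnni2, the fast troponin I gene, differed by -0.15 (SE 0.11), Tpm1 by -0.23 (SE 0.13), the fast calcium pump gene Atp2a1 by 0.13 (SE 0.10) and Actn3, the fast fibre alpha-actinin gene, by 0.11 (SE 0.10).

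Of 13 tested regulators of fibre type, 11 were higher in mutants, 2 lower and 0 called in limma. Before adjustment 1 had a p under 0.05, and the median difference was 0.05. Mef2c, a transcription factor downstream of calcium signalling in muscle, had levels of 10.70, 10.81, 10.71 and 10.84 in mutants 1 to 4, against 10.04, 10.41 and 10.47 in wild types 1 to 3 on its brightest probe. On this probe the genotypes did not overlap, as was the case, with mutants higher, for 4.40% of all muscle probes. The difference was 0.46 (SE 0.12, limma adjusted p = 0.247). Unlike Tnnt1, Mef2c was about equally high in all 4 mutants on this probe. Its other probes, ILMN_1214950 and ILMN_2887992, differed by 0.68 (SE 0.13, limma adjusted p = 0.111) and 0.45 (SE 0.16, limma adjusted p = 0.404). On ILMN_2887992 the genotypes overlapped, with mutant 2 at 8.90 and wild type 3 at 8.94. Ppargc1a, the coactivator gene linked to oxidative fibres, differed by 0.28 (SE 0.21), Ppp3ca, the calcineurin catalytic subunit gene, by 0.15 (SE 0.14), Vgll2 by 0.16 (SE 0.15) and Rcan1 by -0.21 (SE 0.17) on its brightest probe.

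Markers of other cell types moved with some libraries. Of 6 tested heart and fetal muscle genes, 2 were higher, 4 lower and 0 called in limma or at an unadjusted p under 0.05, with a summed level of 2013 to 4468 in mutants and 2121 to 2982 in wild types. Myh6, the alpha myosin heavy chain gene of heart, had levels of 6.85, 7.16, 5.07 and 4.81 in mutants 1 to 4, against 7.85, 6.79 and 5.00 in wild types 1 to 3. Nppa, encoding atrial natriuretic peptide, had 6.36, 7.20, 4.96 and 4.64 in mutants 1 to 4, against 8.20, 6.84 and 5.13 in wild types 1 to 3. Both were higher in mutants 1 and 2 than in mutants 3 and 4, and highest of all in wild type 1. Among the wild types, Tnnc1, Myl2, Myl3, Pln and both Atp2a2 probes were also highest in wild type 1, whereas Tnnt1 was lowest there. Actc1, the cardiac alpha-actin gene, differed by 0.53 (SE 0.25), Myl4 by -0.31 (SE 0.19) and Myh8 by 0.17 (SE 0.19), each on its brightest probe. The dimmer Actc1 probe ILMN_2767216 had 8.98, 8.89, 8.48 and 7.83 in mutants 1 to 4, against 7.87, 7.61 and 6.39 in wild types 1 to 3. The other Myh6 probe, ILMN_2640008, was detected on 0 of 7 muscle arrays. Of the heart markers, Ryr2 was detected on 0 of 7 muscle arrays, Tnni3 and Nppb on 1 each and Myl7 on 2. The part of heart gene signal in the slow fibre values was not tested.

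Fat cell genes also differed between muscle libraries. All 4 tested adipocyte markers were lower in mutants, and Lep, the leptin gene, was called (-2.78, SE 0.23, limma adjusted p = 0.00111). The list's summed level was 423 to 1162 in mutants and 1867 to 4033 in wild types, and Retn and Fabp4 were detected on 0 of 7 arrays. Adipoq, the adiponectin gene, had levels of 9.45, 8.54, 9.78 and 8.30 in mutants 1 to 4, against 10.41, 10.51 and 11.46 in wild types 1 to 3. Of 4 brown fat genes, 2 were tested and 0 called. Cidea, a lipid droplet gene of fat cells, differed by -2.20 (SE 0.57, limma adjusted p = 0.226). Ucp1, the defining brown fat gene, was detected only in wild types 1 and 3, at 7.27 and 7.72, while Elovl3 was detected on 0 of 7 arrays and Cox7a1, which muscle also expresses, differed by 0.04. Mutant 4, with the lowest Adipoq, had intermediate slow fibre levels, and mutant 3, with the highest Adipoq of the mutants, had the lowest Myl2 and Myl3 levels. With Adipoq as a covariate the Tnnt1 difference was 1.42, and those of Tnnc1 (-0.53), Myl2 (-1.35), Myl3 (-1.41) and Atp2a2 probe ILMN_1239742 (-0.07) changed sign, none of them called. Every mutant had less Adipoq than every wild type, so this fit can hardly separate Adipoq from genotype and its signs cannot be read. Whether fat in the pieces plays a part in the slow fibre values was not tested.

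The remaining marker lists were described by their sums. The 9 tested pan muscle fibre genes had a summed level of 91693 to 102848 in mutants and 92198 to 93917 in wild types. Of these genes 7 were higher, 2 lower, 0 called in limma and 1 at an unadjusted p under 0.05. The highest sum was that of mutant 3, where Acta1 (14.75) and Ckm (14.47) were also highest. Both genes lay at the top of the quantile-normalized scale, where values are set by rank. For smooth muscle the sum was 2331 to 3854 in mutants and 2318 to 3384 in wild types, for fibroblasts and tendon 3400 to 4997 in mutants and 3307 to 4114 in wild types, and for endothelium 420 to 536 in mutants and 431 to 510 in wild types. For nerve and Schwann cells it was 248 to 450 in mutants and 393 to 543 in wild types, for blood 5924 to 14756 in mutants and 7964 to 14340 in wild types, and for satellite cells and regeneration 1187 to 1508 in mutants and 1281 to 1624 in wild types. The blood sum was lowest in mutant 1 and highest in mutant 4, and the nerve sum was lowest in mutant 4. The part of these cells in the slow fibre values was not tested. Of the defining markers, Pax7 and Myf5 of satellite cells and Ptprc and Cd3e of immune cells were not tested, being detected on fewer than 3 muscle arrays.

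**Figure D4:**
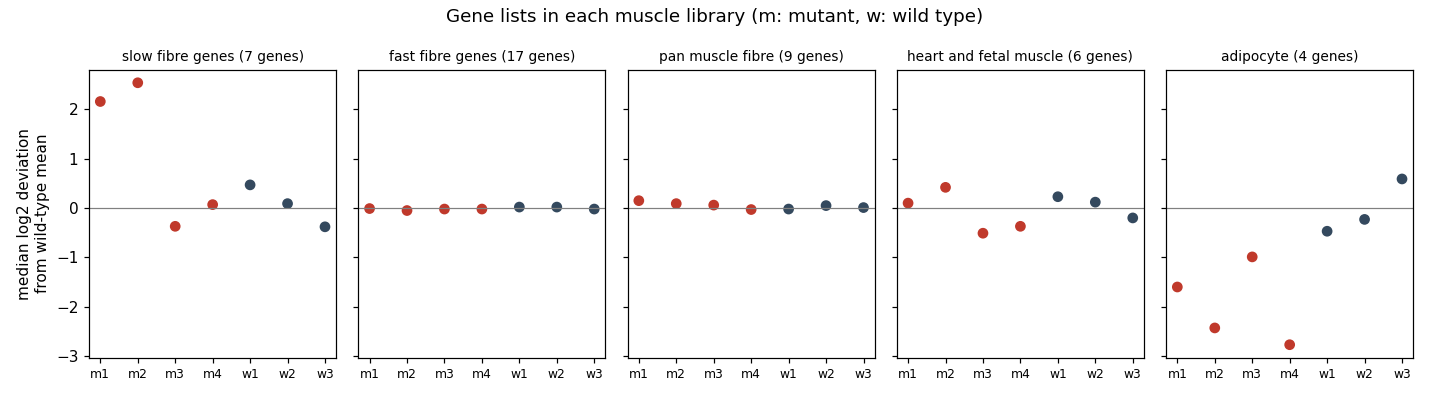
Median deviation of each gene list from the wild-type mean on the log2 scale (vertical axis) in mutant (m1 to m4) and wild-type (w1 to w3) muscle libraries, at 1 probe per gene. The slow fibre list stood at 2.16 and 2.54 in mutants 1 and 2 and at -0.37 and 0.07 in mutants 3 and 4, against 0.47, 0.09 and -0.38 in wild types 1 to 3, while the fast fibre list stayed between -0.05 and 0.02.

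In brain of the same mice, where Tnnt1, Tnnc1, Myl2, Atp2a2 and Tpm3 were measurable, the spread was small. Of 6 probes tested, 0 were called in limma, beside 0 of 15264 probes, and 1 had an unadjusted p under 0.05, beside 3.85% of all probes. Tnnt1 had brain levels of 8.45, 8.42, 8.53 and 8.48 in mutants 1 to 4, against 8.07, 8.46 and 8.40 in wild types 1 to 3. Mutant 2 and wild type 1, whose muscle differed 24.0-fold in Tnnt1, had Tnnt1 levels of 8.42 and 8.07 in brain by label. The brain library labelled mutant 2 is among those in doubt. Tnnc1 had 7.68, 8.06, 7.93 and 7.68 in mutants 1 to 4, against 7.98, 7.96 and 7.59 in wild types 1 to 3. Atp2a2 reached 13.43 to 13.46 in brain of mutants and 13.32 to 13.53 in brain of wild types on probe ILMN_1245425.

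Myl2 was low in brain but its genotypes did not overlap. Its brain levels were 5.12, 5.21, 5.09 and 5.37 in mutants 1 to 4, against 4.73, 4.88 and 4.97 in wild types 1 to 3, by label. The difference of 0.33 (SE 0.11) did not pass over all probes (limma adjusted p = 1.00, exact permutation p = 0.0286, the smallest possible). Without overlap and higher in mutants stood 2.25% of all brain probes.

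In testis most member probes were low or undetected. Atp2a2 probe ILMN_1245425 and Tpm3 probe ILMN_2444316 had means of 7.42 and 6.86 in mutants and 7.24 and 6.88 in wild types. Of 6 probes tested, 0 were called in limma, beside 0 of 12487 probes. At an unadjusted p under 0.05 there was 1, beside 5.53% of all probes. Myl2 had testis levels of 4.78, 4.81, 4.33 and 4.80 in mutants 1 to 4, against 6.13, 6.26, 4.71 and 4.91 in wild types 1 to 4. Wild types 1 and 2 were higher than the rest. The difference was -0.82 (SE 0.31, limma adjusted p = 0.834, exact permutation p = 0.114). Myl3 followed the same libraries, being detected at 4.87 and 5.23 in wild types 1 and 2 and on no other testis array. Tnnc1 was detected in mutant 2 at 4.48, and in wild types 1 and 2 at 4.62 and 4.98. Tnnt1 was detected in every testis library, between 4.81 and 5.15 in mutants and between 4.67 and 5.35 in wild types. The probes of Tnni1, Myh7 and Pln and Tpm3 probes ILMN_2426965 and ILMN_2426967 were detected on 0 testis arrays.

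Levels in the 3 tissues were compared on values of all 22 arrays normalized together, a scale on which single values differ from those above. Of 11 probes tested between muscle and brain of the same 7 mice, 6 were higher in muscle, 2 lower and 3 not called (limma, with the mouse as a block), beside 40.3% of 16322 probes higher and 38.9% lower. Myl2 ranged from 7.75 through a median of 9.48 to 11.64 in muscle, against 4.53, 4.71 and 4.86 in brain, 32.5-fold higher (log2 difference 5.02, SE 0.40, adjusted p = 3.65e-07). Myl3 was higher in muscle by 4.90 (SE 0.54, adjusted p = 5.71e-06), with detection on 7 of 7 muscle arrays and 1 of 7 brain arrays, so that the brain level lay near background and the size is uncertain. Tnnc1 was 3.08-fold higher (1.62, SE 0.39, adjusted p = 0.00246), although its ranges of 7.00 to 10.47 in muscle and 6.64 to 7.11 in brain overlapped. Tpm3 probe ILMN_2426966, detected on 3 of 7 muscle and 2 of 7 brain arrays, was higher in muscle by 0.76 (SE 0.19). Tpm3 probe ILMN_2426967, detected on 3 muscle arrays and 0 brain arrays, was at least 1.50-fold higher (limma adjusted p = 0.00746). That probe, Myl3, Tpm3 probe ILMN_2426966 and Pln were each detected on fewer than 3 brain arrays. They entered the test only through muscle, where they were high, so their calls add no support to the 6. Pln, detected on 3 of 7 muscle and 2 of 7 brain arrays, was higher by 0.48 (SE 0.18, adjusted p = 0.0276). Pln lost its call without wild type 1 (0.29), wild type 2 (0.42), mutant 2 (0.45) or both mice whose brain library is in doubt (0.53).

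Atp2a2 was lower in muscle than in brain on both probes. ILMN_1245425 ranged from 9.40 through 9.79 to 11.16 in muscle, against 12.81, 12.94 and 13.05 in brain, a log2 difference of -2.86 (SE 0.21, adjusted p = 1.34e-07), and ILMN_1239742 differed by -2.46 (SE 0.19, adjusted p = 2.83e-07). SERCA2 also has a form made in most cells, and which form each probe reads was not tested. Tnnt1 was not called between muscle and brain. It ranged from 6.76 through 7.35 to 10.89 in muscle, against 7.12, 7.51 and 7.59 in brain (0.87, SE 0.46, adjusted p = 0.107), and only 3 of the 7 mice had more in muscle. Without mutant 2 the difference was 0.44. Median scaling in place of quantile normalization moved the median difference of all probes from 0.02 to -0.32 and the share of calls that were higher in muscle from 50.9% to 35.6%. On that scaling Tnnt1 differed by 0.01. Tnni1 differed by 0.22 in place of -0.08 and was called (limma adjusted p = 0.0371). Tpm3 probe ILMN_2444316, not called at -0.22 (limma adjusted p = 0.0805), differed by -1.24 and was called. It was also called without mutant 1 (-0.31) and without the mouse as a block (-0.22, limma adjusted p = 0.0444), and Tnni1 was called without mutant 1 (-0.23).

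Between muscle and testis, tissue and age cannot be told apart, and the mice differ. Of 10 probes tested, 9 were higher in muscle and 1 lower (limma), beside 45.2% of 15049 probes higher and 37.5% lower. Myl2 was 14.3-fold higher in muscle (3.84, SE 0.54) and Tnnt1 5.24-fold (2.39, SE 0.52). Myl3 was higher by 4.39 (SE 0.62) and Tnnc1 by 3.73 (SE 0.45), but they were detected on only 2 and 3 of the 8 testis arrays, so the sizes are uncertain. Pln and Tpm3 probe ILMN_2426967, detected on 0 testis arrays, were at least 1.03-fold and at least 1.15-fold higher (limma adjusted p = 0.0152 and 0.0126). Myl3 and Tpm3 probe ILMN_2426966 were each detected on 2 of 8 testis arrays, fewer than the 3 needed. Pln, Myl3 and these Tpm3 probes entered the test only through muscle, where they were high, so their calls add no support to the 9. The lower one was Tpm3 probe ILMN_2444316, which ranged from 6.37 through 6.57 to 6.92 in muscle, against 7.74, 8.08 and 8.41 in testis (-1.50, SE 0.12, adjusted p = 5.46e-10). For Tnnt1 the order of tissue medians was brain, muscle and testis, with muscle and brain not differing beyond their spread. For Myl2 it was muscle, testis and brain, with ranges in testis and brain that overlapped. Myl3 was highest in muscle, and its mostly undetected values in testis and brain have no order. For both probes of Atp2a2 it was brain, muscle and testis, and no ranges overlapped. Median scaling moved the median difference of all probes from 0.15 to 0.25.

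**Figure D5:**
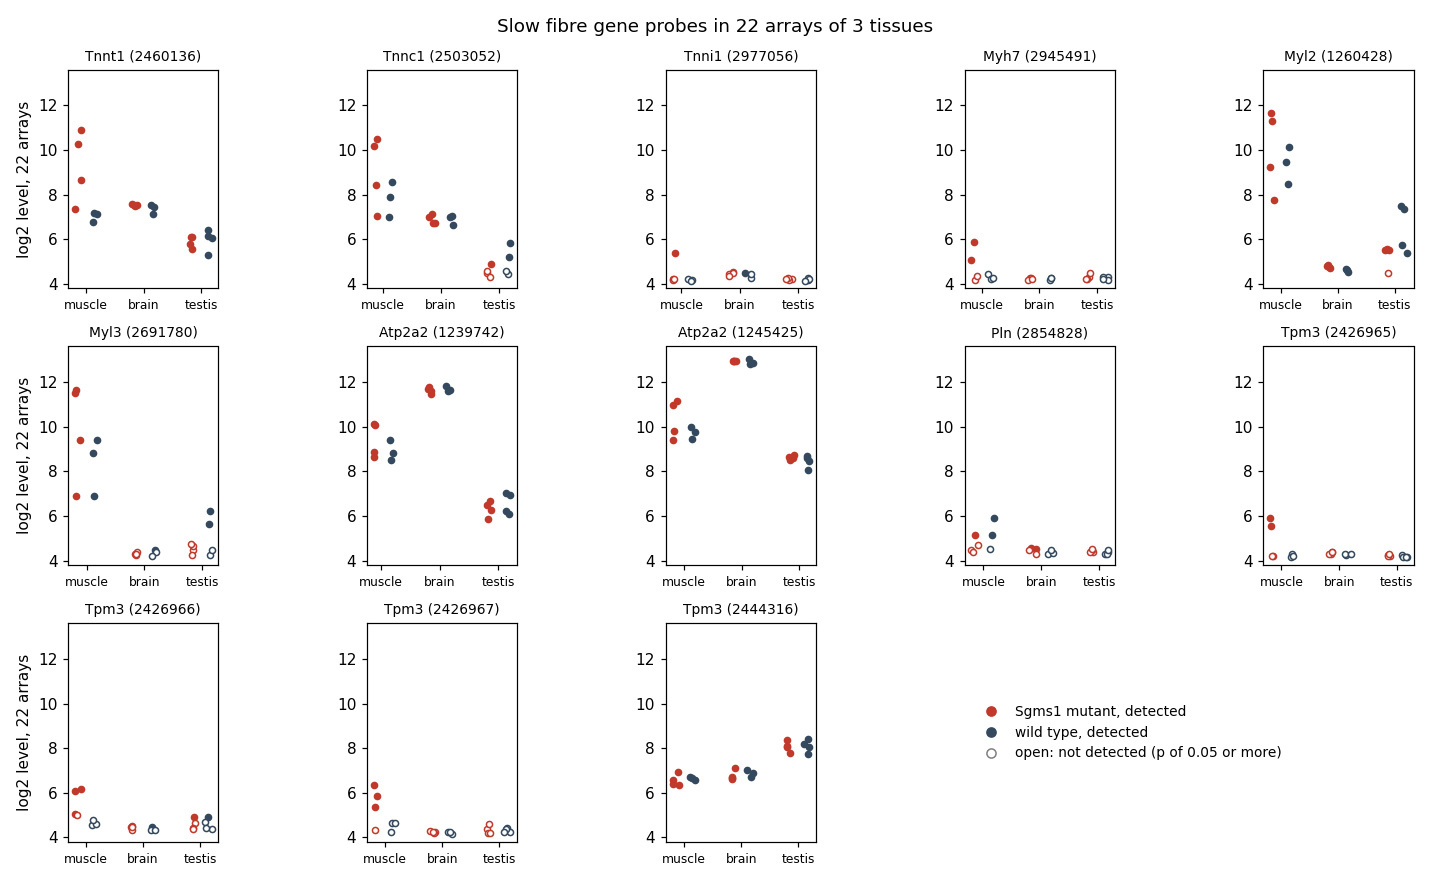
Log2 level on the scale of 22 arrays normalized together (vertical axis) of each slow fibre gene probe in muscle, brain and testis, with mutants in red on the left and wild types in dark blue on the right of each tissue, and open circles where not detected. Muscle points are widely spread for Tnnt1 (6.76 to 10.89), Tnnc1, Myl2 and Myl3, while the brain points lie close together.

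The genotype difference in muscle was also set against that in brain within mice. For Tnnt1 the muscle minus brain difference averaged 1.77 in mutants and -0.33 in wild types, which differ by 2.10 (SE 0.70, limma adjusted p = 0.536). For Myl3, detected on 1 of 7 brain arrays, it averaged 5.57 in mutants and 4.02 in wild types, and for Tnnc1 2.15 in mutants and 0.93 in wild types. None of the 11 probes tested was called, beside 0.0123% of 16322 probes, and 2 of the 11 had an unadjusted p under 0.05, Tnnt1 and Tpm3 probe ILMN_2426966, beside 6.71% of all probes. In muscle that Tpm3 probe was detected in 3 of 4 mutants and 0 of 3 wild types.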

How the data were processed

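Per the file headers, the deposited main table gives each probe on each array a raw intensity on a linear scale and a detection p-value, before any normalization. A second table deposited by the authors holds processed values, a score of unstated scale and centring (array medians 15.0 to 15.1, correlation with the raw intensity 0.969 to 0.999), and served only as an alternative. The submitters' processing notes name GenomeStudio 2011.1. Of 25697 probes, 23978 had 1 gene symbol, 0 several and 1719 none.

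Each tissue was normalized alone by the neqc function (limma 3.58.1, R 4.3.3), that is normexp with background estimated through the detection p-values, an offset of 16, quantile normalization and log2. Probes detected at p under 0.05 on 3 or more arrays of the tissue entered lmFit and eBayes, two-sided, and p-values were adjusted over all of them by Benjamini-Hochberg (5%). The test was tried on simulated data. Replicates are separate mice, and the number of arrays limits precision. Exact permutation tests were two-sided and cannot fall below 0.0286. The files name no slide or scan batch.

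Named were all member probes, Sgms1, up to 5 genes of smallest p per list, and the 10 most and 5 least like Tnnt1. Genes named as markers detected on few or no arrays, and Acta1, Ckm, Csrp3, Sln, Mylpf, Myl1, Tnnc2, Pvalb, Eno3, Ucp1, Cox7a1, Elovl3, Retn and Fabp4, stand outside that rule and were chosen after their values were seen. Members, lists and tests were chosen with earlier results of these data known. Alternatives were other background corrections, scalings, filters, variance models, weights, a replicate block, an Adipoq covariate and leaving out libraries.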

Additional observations from a re-analysis of the deposited data

Results flagged for a closer look

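Groups of 4 libraries with at least 1 detected value were searched for a library far from the others (37 groups of a member probe, a tissue and a genotype), and chance flags about 1 in 20. There were 2 cases. Tnni1 in muscle had a log2 level of 4.90 in mutant 1, where it was detected, beside undetected values of 4.17 to 4.24 in the other 3 mutants, a gap of 0.903 of the group's whole range. Myl2 in testis had a log2 level of 4.33 in mutant 3, where it was not detected, beside 4.78 to 4.81 in the other 3 mutants, a gap of 0.929 of the range. Groups of 3 libraries were not searched.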

How the results depend on the processing

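No member probe was called in the muscle, brain or testis genotype comparison, or in the test of whether the genotype difference differed between muscle and brain, under any alternative run. The number of all muscle probes called, 12, was 7 without background correction, 37 with median scaling, 5 with all 22 arrays normalized together, 4 with the authors' processed values, 4 without a detection filter, 28 with trend and robust options, 22 with array weights, 0 with Adipoq as a covariate and 4 without both wild-type libraries with detected Ucp1, which leaves 1 wild type assumed to vary like the mutants. The replicate number as a block gave 35, but the numbers share only a number in muscle (correlation of deviations 0.02, 0.07 and 0.10), and wild type 1 correlated best with mutant 4. Leaving out single libraries gave 8 to 22. In brain 0 became 6 without both libraries in doubt and 0 to 5 without single ones, and in testis 0 became 1 without a detection filter. For the genotype difference in muscle against that in brain, 2 became 21 with median scaling, 6 without background correction, 0 without both mice in doubt and 0 to 5 without single mice. Member probes lower in muscle than in brain numbered 2 to 4 without single mice (4 without mutant 1, where Tnni1 and Tpm3 probe ILMN_2444316 were called at -0.23 and -0.31), and 3 with no replicate block, that is without the mouse as a block. Signs that turned were those of Tpm3 probe ILMN_2444316 in muscle (0.01 with the replicate block, 0.15 with Adipoq, and from -0.18 to 0.01 without single libraries, turning without mutant 3 or mutant 4), of Tnnc1 (-0.53), Myl2 (-1.35), Myl3 (-1.41) and Atp2a2 probe ILMN_1239742 (-0.07) with Adipoq, and of Tnni1 between muscle and brain (0.22, median scaling). Pln between muscle and brain lost its call without wild type 1, wild type 2, mutant 2 or both mice in doubt, and between muscle and testis with median scaling (0.25). Median scaling moved the median testis difference of all probes to 0.12. The cause of these changes was not tested, and the fit with Adipoq can hardly separate Adipoq from genotype. A slide block was not run because the tables used here give no slide. Probes near background, those of Myh7, Tnni1, Pln and most of Tpm3, limit what these arrays show.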
